A study of Rattus norvegicus with 47 samples.

Results

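The step from postnatal day 30 to postnatal day 40 was examined in socially reared Wistar rats, an outbred laboratory strain. The tissue was medial prefrontal cortex, which serves decisions and social conduct. The arrays were chosen by their titles: 6 arrays of socially reared rats at day 40 (Soc P40) and 6 at day 30 (Soc P30), 12 of the 47 arrays of the series. The same step in rats reared in isolation served for comparison, with 5 arrays at day 40 (Iso P40) and 6 at day 30 (Iso P30). All groups shared the strain, the rapid dissection and freezing of the tissue and the Trizol extraction of total RNA, and differed in rearing and age. Sex and batch are not given in the labels, nor whether each array stood for a separate animal or for pooled tissue, so the p-values rest on a spread between samples that may be technical. The arrays were 1-colour Affymetrix arrays, on which a gene is read by 1 or more probe sets, groups of short probes placed mostly near the 3' end of its transcript. Values are the deposited log2 signals, and differences are day 40 minus day 30 on the log2 scale from a fit with limma. A probe set or gene was called where its Benjamini-Hochberg adjusted p over all 12149 probe sets kept was under 0.05.

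Day 30 to day 40 lies in the early adolescence of the rat, when the prefrontal cortex still prunes synapses, adds myelin and refines its inhibitory circuits. Interferons, cytokines known mainly from defence against viruses, act through surface receptors and Jak kinases and switch on a large set of interferon-induced genes. Irf7, itself one of these genes, is a transcription factor that drives the production of more interferon. In the brain these genes are expressed at a low level in most conditions, in microglia and also in other cells.

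The tissue carried the markers of cortex at both ages. The vesicular glutamate transporter Slc17a7 averaged 10.52 ± 0.075 in Soc P40 and 10.56 ± 0.060 in Soc P30 and the GABA synthesis enzyme Gad1 10.27 ± 0.033 in Soc P40 and 10.37 ± 0.032 in Soc P30 (mean ± SD, n = 6 each, as for all such pairs of values below). Arrays of one age resembled each other more than arrays of the other age. The root mean square distance between arrays had a median of 0.298 log2 between the ages (0.266 to 0.342, 36 pairs) and of 0.224 within them (0.194 to 0.293, 30 pairs). The 3' to 5' signal ratio of Gapdh, a measure that goes up as RNA degrades, was 1.61 ± 0.091 in Soc P40 and 1.52 ± 0.042 in Soc P30 (SD, n = 6 each, exact permutation p = 0.0476, adjusted p = 0.0595 over 5 measures). The hexokinase ratio was 3.53 ± 0.54 in Soc P40 and 2.98 ± 0.25 in Soc P30 (exact permutation p = 0.0476, adjusted p = 0.0595), and the actin ratio 3.98 ± 0.32 in Soc P40 and 3.50 ± 0.57 in Soc P30 (exact permutation p = 0.113). The median linear signal was higher in every Soc P40 array (75.97 to 79.32) than in any Soc P30 array (75.06 to 75.78; exact permutation p = 0.00216, the smallest that 6 against 6 arrays allow, adjusted p = 0.00541). The 2% trimmed mean ran the other way, 157.2 to 159.2 in Soc P40 and 159.3 to 159.9 in Soc P30, with the same p.

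Of 12149 probe sets, 3265 (26.9%) were called, 1514 higher (12.5%) and 1751 lower (14.4%) in Soc P40. Differences over 0.5 were few, 176 higher (1.45%) and 193 lower (1.59%). Through the brightest probe set of each of 7898 genes, 1931 genes were called (24.4%), 1020 higher (12.9%) and 911 lower (11.5%), and differences over 0.5 were mostly upward, 97 higher (1.23%) and 28 lower (0.355%). The median over all genes was 0.015. The ranges of the 6 and 6 arrays did not overlap for 324 genes with Soc P40 above (4.10%) and for 412 with Soc P40 below (5.22%). The tissue was medial prefrontal cortex with all its cell types together, so fewer cells of a type and less RNA per cell cannot be told apart.

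Of the 15 largest rises 8 were in genes on the list of interferon-induced genes. Irf7 had a log2 signal of 8.18, 8.27 and 8.37 (lowest, median and highest of 6 arrays) in Soc P40, against 5.99, 6.25 and 6.31 in Soc P30. Isg15, a ubiquitin-like protein attached to other proteins during the interferon response, had 7.51, 7.67 and 7.72 in Soc P40, against 5.33, 5.72 and 6.08 in Soc P30. No Soc P30 array came near any Soc P40 array for either gene. Irf7 was thus 4.22-fold higher (2.08 ± 0.082 (SE), adjusted p = 4.25e-25 in limma) and Isg15 3.91-fold higher (1.97 ± 0.17, adjusted p = 7.36e-13). Irf9, a DNA-binding transcription factor of this response, had 7.07, 7.38 and 7.56 in Soc P40, against 5.55, 6.03 and 6.16 in Soc P30, a rise of 1.41 ± 0.10 (adjusted p = 2.8e-15). The brightest gene of the list, Ifi27, had 10.78, 10.90 and 10.99 in Soc P40, against 9.70, 9.74 and 9.86 in Soc P30, a rise of 1.15 ± 0.035 (adjusted p = 6.41e-30).

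The list of interferon-induced genes held 52 entries, of which 35 had a probe set with 1 gene symbol in the deposited table. Without any filter on signal, 28 of the 35 were higher in Soc P40, 0 were lower and 7 were not called, against 10.1% higher and 8.14% lower among all 10898 genes, and the list's median was 0.89 against 0.027. A filter on the mean signal of all samples left 16 of the 35, and a gene that is bright in 1 group passes such a filter more easily, so the 16 are not all the members. Over the arrays other than Soc P40, 5 of the 16 (Isg15, Ifit2, Lgals3bp, Eif2ak2 and Rsad2) lie under the filter and 11 over it, and 7 of these 11 were higher. Of the 16, 12 were higher, 0 lower and 4 not called, with a median of 1.02, and 12 and 0 were also counted with each of the 12 arrays left out in turn and after quantile normalization. In limma 0 of the 16 were lower at an unadjusted p under 0.05 too. Ranges did not overlap between the ages for 12 of the 16, the same 12 that were called, against 4.10% of all genes with Soc P40 above. The calls and the ranges come from the same values, so the ranges describe the calls and are no separate support for them. The mean over all 35 measured members was 6.47 to 6.57 in the Soc P40 arrays, against 5.52 to 5.72 in the Soc P30 arrays.

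**Figure D1:**
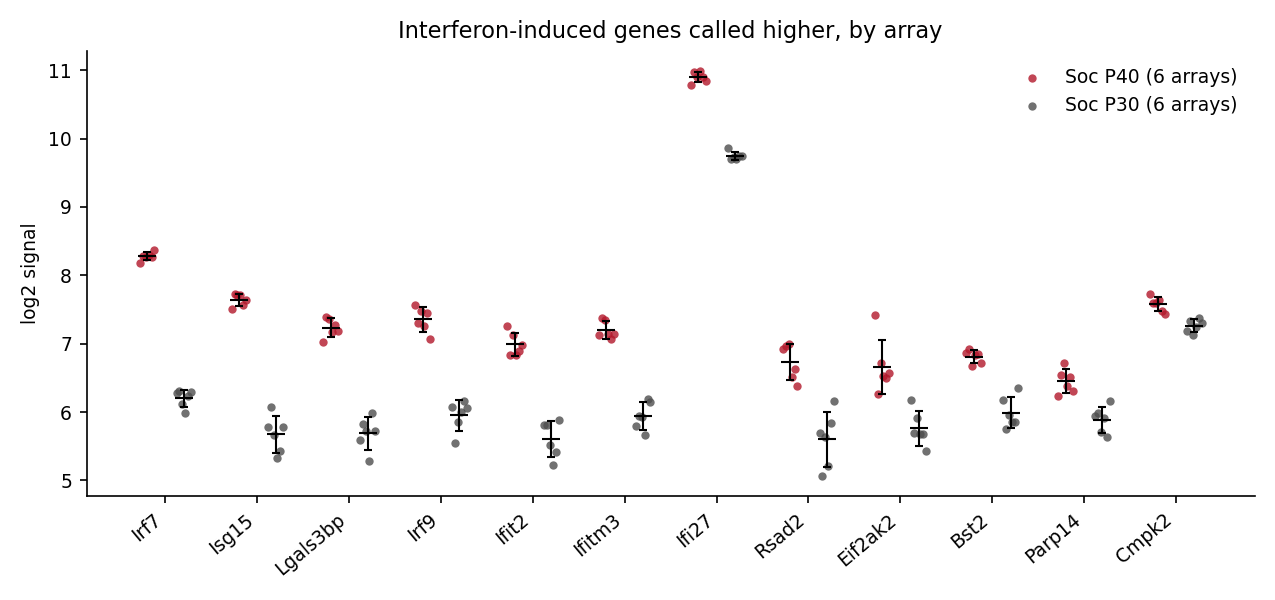
Log2 signal (y axis) of the 12 interferon-induced genes called higher, one point per array, Soc P40 left in red and Soc P30 right in grey, with the mean and SD as black bars. Each gene's Soc P40 arrays lie above its Soc P30 arrays, by 2.08 on average for Irf7 and by 0.32 for Cmpk2.

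Among effectors that act on viral RNA or its translation, Ifit2 averaged 6.99 ± 0.17 in Soc P40 and 5.61 ± 0.27 in Soc P30, a rise of 1.38 ± 0.11. The kinase Eif2ak2, which halts translation when it meets double-stranded RNA, rose by 0.90 ± 0.17 (adjusted p = 6.06e-05), and Rsad2, which makes an antiviral nucleotide, by 1.13 ± 0.15 (adjusted p = 8.41e-08). Among membrane proteins that block entry or exit of viruses, Ifitm3 had 7.07, 7.14 and 7.37 in Soc P40, against 5.66, 5.93 and 6.20 in Soc P30 and Bst2 had 6.67, 6.85 and 6.92 in Soc P40, against 5.75, 5.90 and 6.36 in Soc P30, rises of 1.26 ± 0.12 and 0.82 ± 0.11. The secreted glycoprotein Lgals3bp rose by 1.54 ± 0.14, the ADP-ribosyltransferase Parp14 by 0.56 ± 0.13 and the mitochondrial nucleotide kinase Cmpk2 by 0.32 ± 0.057. The 4 other members were not called and stood at 0.18 (Stat2, a partner of Irf9), 0.15 (the immunoproteasome subunit Psmb10), 0.020 (the RNA editing enzyme Adar) and -0.013 (the exonuclease Trex1). Irgm2, an immunity-related GTPase that was not on the list, had 6.72, 6.73 and 6.89 in Soc P40, against 5.46, 5.73 and 5.77 in Soc P30, a rise of 1.10 ± 0.090 (adjusted p = 1.65e-13).

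Of the 19 measured members under the filter, 16 were higher in the fit without it. Usp18, which removes Isg15 from proteins and damps the receptor, averaged 7.09 ± 0.16 in Soc P40 and 5.11 ± 0.41 in Soc P30, a difference of 1.98 (adjusted p = 1.91e-10). Ifi44 averaged 6.80 ± 0.18 in Soc P40 and 5.33 ± 0.26 in Soc P30, a difference of 1.47, and the antiviral GTPases Mx1 and Mx2 differed by 1.11 and 0.99. Dtx3l and Ube2l6, both enzymes of ubiquitin-like modification, differed by 0.94 and 0.89. The 3 not called were Ifitm1 (0.45), Dhx58 (0.89) and the chemokine Cxcl10 (0.65). Their Soc P30 means of 4.56, 3.30 and 3.80 lie near or under the 10th percentile of all signals, 4.03. Some members called higher lay as low, with Soc P30 means of 3.98 for Isg20 and 4.16 for Gbp2, so the size of such rises is not known.

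Of 13 kept genes of interferon receptors and signalling, 1 was higher (7.69%, against 12.9% of all genes) and 1 lower (7.69%, against 11.5%; median -0.08). The receptor chains Ifnar1, Ifnar2, Ifngr1 and Ifngr2 stood at -0.24, 0.02, -0.05 and 0.007 and were not called, nor was the sensor kinase Tbk1 (-0.10). The kinase Jak1 fell by 0.17 (adjusted p = 0.00135). The adaptor Mavs was called higher at 0.37 (adjusted p = 0.0348), a call that ended without Soc P40 arrays 1, 2, 4 or 6 or Soc P30 arrays 1, 2, 3 or 4.

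Irf factors bind short repeats of GAAA, so the promoters of the members that rose were searched for GAAANNGAA on either strand (N stands for any base, and TTCNNTTTC is the same motif on the other strand). Of the 12 members called, 10 had a promoter in the RefSeq table of the assembly GRCr8 (250 bases before to 50 after the gene's start), and 9 of the 10 held the motif, against 9.71% of all 33469 promoters and 6.68% of the 6643 promoters of kept genes. Of the members not called 3 had a promoter and 1 of these, Psmb10, held it. The list was made of genes that interferon induces, so the share with the motif describes the list and not the step. The members not called are too few for a contrast. A match is a description of the sequence and not a measured site. The promoters of the 4 genes of largest rise among those that held the motif are shown. The motif is in capitals and each is read 5' to 3' on the gene's strand. Isg15, Irf9 and Ifit2 rose more than Ifitm3 and Ifi27 but had no promoter entry or no match. They lie at chr1:205799974-205800273 on the minus strand (Irf7), chr10:104127799-104128098 on the minus strand (Lgals3bp), chr1:205541709-205542008 on the minus strand (Ifitm3) and chr6:128355062-128355361 on the plus strand (Ifi27). In Irf7 the motif starts at position -68 from the gene's start and in Lgals3bp and Ifitm3 at -50 and -44, while Ifi27 holds 2 matches, the first at -169. Irf9 had a promoter without these letters, and Isg15 and Ifit2 had no entry.
Irf7: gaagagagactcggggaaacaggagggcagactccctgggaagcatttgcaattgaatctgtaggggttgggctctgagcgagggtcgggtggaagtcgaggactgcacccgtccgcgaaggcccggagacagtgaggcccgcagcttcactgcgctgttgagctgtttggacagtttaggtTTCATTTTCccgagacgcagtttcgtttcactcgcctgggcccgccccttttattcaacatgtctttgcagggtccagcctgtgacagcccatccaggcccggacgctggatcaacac
Lgals3bp: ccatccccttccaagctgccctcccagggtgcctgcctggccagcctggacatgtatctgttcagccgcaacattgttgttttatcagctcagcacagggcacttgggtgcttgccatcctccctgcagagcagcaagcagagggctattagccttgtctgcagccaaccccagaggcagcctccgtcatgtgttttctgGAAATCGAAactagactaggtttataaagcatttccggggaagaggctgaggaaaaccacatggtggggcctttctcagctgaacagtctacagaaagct
Ifitm3: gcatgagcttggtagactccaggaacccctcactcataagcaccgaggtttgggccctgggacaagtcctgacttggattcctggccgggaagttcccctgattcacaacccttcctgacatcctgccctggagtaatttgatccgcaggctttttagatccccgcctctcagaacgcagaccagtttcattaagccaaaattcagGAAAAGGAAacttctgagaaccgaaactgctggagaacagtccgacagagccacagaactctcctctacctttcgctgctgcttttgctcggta
Ifi27: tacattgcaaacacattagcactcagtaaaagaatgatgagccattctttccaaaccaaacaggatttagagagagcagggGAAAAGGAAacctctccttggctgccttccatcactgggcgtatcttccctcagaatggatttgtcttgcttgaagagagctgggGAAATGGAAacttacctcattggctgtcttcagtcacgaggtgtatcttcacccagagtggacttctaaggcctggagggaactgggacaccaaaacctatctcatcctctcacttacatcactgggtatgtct

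The same step in isolation-reared rats was set against the one in socially reared rats. The steps share no arrays with each other. The test of their difference uses the same Soc arrays as the calls above, so it is no separate support for the rise in Soc. Irf7 averaged 5.83 ± 0.16 in Iso P40 (n = 5) and 5.58 ± 0.12 in Iso P30 (n = 5, after arrays 3 and 4 of that group, which lay closer together than any other pair of replicates, were counted as 1 sample by their mean). Its step in Soc was 1.82 larger than in Iso (adjusted p = 4.25e-16). Without the filter on signal, 22 of all 35 measured members had a larger step in Soc than in Iso and 0 a smaller one (0 also at an unadjusted p under 0.05 in limma), against 4.46% and 5.78% of all genes, and the median difference was 0.92 against -0.007. With the filter 11 of 16 had a larger step and 0 a smaller one (5.95% and 8.93% of all genes), 7 of the 11 being members that lie over the filter without the Soc P40 arrays. Isg15 differed by 2.13, Ifit2 by 1.28, Irf9 by 1.22, Ifitm3 by 1.15 and Ifi27 by 1.09. Eif2ak2 (0.64, adjusted p = 0.0703) and Cmpk2 (0.17, adjusted p = 0.159) rose in Soc without a called difference between the steps.

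Among the social groups the level was highest at day 40. The mean over all 35 measured members was 5.60 ± 0.083 in Soc P30, 6.51 ± 0.033 in Soc P40, 5.39 ± 0.055 in Soc P60 and 5.27 ± 0.053 in Soc P80 (SD, n = 6 each). In isolation-reared rats it was 5.53 ± 0.069 in Iso P30, 5.57 ± 0.032 in Iso P40, 5.56 ± 0.057 in Iso P60 and 5.86 ± 0.078 in Iso P80. No array outside Soc P40 reached its lowest array, 6.47, and the highest of the others, 5.96, was an Iso P80 array. Of the 35 members 30 had their highest group mean in Soc P40. The plot of levels by age shows this peak for Irf7, Isg15 and Ifi27, and beside them the different courses of Dlg4 and Ttr, described further on.

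**Figure D2:**
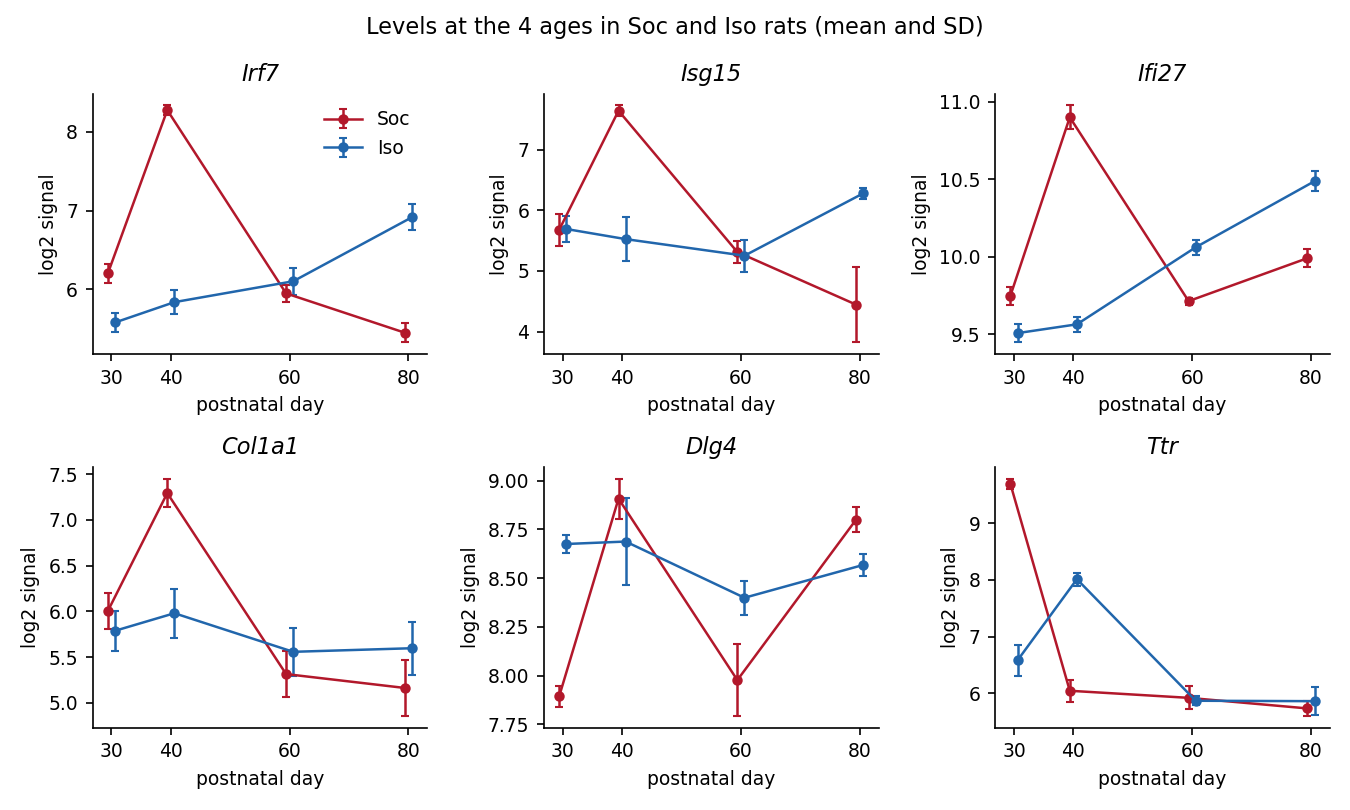
Mean log2 signal (y axis, with SD) of 6 genes at postnatal days 30, 40, 60 and 80 (x axis) in Soc (red) and Iso (blue), 5 or 6 samples a point. Irf7, Isg15, Ifi27 and Col1a1 peak in Soc P40 (Irf7 8.28), while Ttr is highest in Soc P30 (9.70) and, among Iso groups, in Iso P40 (8.01).

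Some genes that present antigen rose. Of 8 kept members of that list 5 were higher and 1 lower, against 12.9% and 11.5% of all genes, and without the filter 5 of 17 were higher and 1 lower, against 10.1% and 8.14% (median over the 8 members 0.25). The class I histocompatibility gene RT1-S3 had 7.58, 7.66 and 7.76 in Soc P40, against 6.02, 6.25 and 6.40 in Soc P30, a rise of 1.44 ± 0.090 (adjusted p = 1.36e-17), and its other probe sets rose by 0.78 and 0.60. RT1-T24-3 rose by 0.96 ± 0.096, and B2m, the light chain shared by all class I molecules, had 10.64, 10.70 and 10.78 in Soc P40, against 10.39, 10.44 and 10.47 in Soc P30, a small rise of 0.26 ± 0.038 (adjusted p = 4.51e-07) with no overlap. The loading chaperone Pdia3 rose by 0.25 ± 0.061. Calr, another chaperone of class I loading, was called at 0.13, and stood at 0.082 (adjusted p = 0.092) without Soc P40 array 2, which lay above the other 5. RT1-T24-4 was called lower (-1.93 ± 0.24), with 1.79, 4.02 and 5.06 in Soc P40, against 5.51, 5.64 and 5.80 in Soc P30; the Soc P40 values lie around the 10th percentile of all signals (4.03), so the size of this fall is not known. RT1 genes are near-identical copies, so which of them a probe set reads is uncertain.

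Several microglial and complement genes rose. The list had 6 of 13 kept members higher and 1 lower, against 12.9% and 11.5% of all genes (median 0.07). With 1 array left out 4 to 6 were higher and 1 lower. After quantile normalization 5 were higher and 1 lower, against 13.4% and 9.6% of all genes. The 3 chains of C1q, which starts the classical complement cascade and tags synapses for removal by microglia, rose together. C1qa had 8.67, 8.76 and 8.96 in Soc P40, against 8.28, 8.33 and 8.40 in Soc P30 (0.47 ± 0.048, adjusted p = 8.05e-11), and C1qb and C1qc rose by 0.49 ± 0.13 and 0.47 ± 0.13. Fcer1g, the signalling chain of Fc receptors, rose by 0.42 ± 0.057 (adjusted p = 1.38e-07). P2ry12, a purine receptor of resting microglia, fell by 0.25 (adjusted p = 0.00187), with 7.48, 7.57 and 7.70 in Soc P40, against 7.72, 7.82 and 8.04 in Soc P30. The step of C1qa in Soc exceeded that in Iso by 0.42 (adjusted p = 2.99e-05), that of Fcer1g by 0.34 and that of C1qc by 0.79. The mean over the 13 genes was 7.48 to 7.61 in Soc P40 arrays and 7.28 to 7.42 in Soc P30 arrays. The pan-leukocyte marker Ptprc was near the 10th percentile of all signals at both ages (4.43 ± 0.18 in Soc P40 and 4.26 ± 0.47 in Soc P30). Whether the number of microglia or other immune cells had a part in the interferon genes' rise was not tested.

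Collagens of the meninges and vessel walls rose as well. Col1a1 had 7.13, 7.29 and 7.46 in Soc P40, against 5.64, 6.09 and 6.18 in Soc P30, a rise of 1.29 ± 0.14 (adjusted p = 5.19e-10). Col1a2 rose by 0.83 ± 0.15 and Col3a1 by 0.56 ± 0.090, and all 3 had no overlap between ages. The step of Col1a1 in Soc exceeded that in Iso by 1.10 (adjusted p = 0.000147) and that of Col1a2 by 0.66 (adjusted p = 0.0302). Col1a1 averaged 5.32 ± 0.26 in Soc P60. Of 7 kept members of the blood and meninges list these 3 were higher and 1, the haemoglobin chain Hbb, was lower (-0.24 ± 0.045). Among all genes 12.9% were higher and 11.5% lower. Over the arrays other than Soc P40, Col1a1 and Col1a2 lie under the filter on signal. Without that filter 3 of 10 measured members were higher and 1 lower, against 10.1% and 8.14% of all genes. The other kept members Ogn, Igfbp2 and Ptgds, an enzyme abundant in the meninges, stood at 0.15, -0.13 and -0.01 and were not called. Lum and Dcn, both under the filter, stood at 0.26 and 0.30 and were not called without it. The mean over the 7 genes was 7.98 to 8.10 in Soc P40 arrays and 7.60 to 7.79 in Soc P30 arrays, and the part of meninges left on the tissue was not tested.

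Among genes of endothelium and pericytes 5 of 18 were higher and 1 lower, against 12.9% and 11.5% of all genes (median 0.005). The glucose transporter of the blood-brain barrier Slc2a1 rose by 0.24 ± 0.042 and the organic anion transporter Slco1a4 by 0.23 ± 0.034. Ly6e, which interferon also induces, rose by 0.21 ± 0.040 in Soc and by 0.23 in Iso (difference -0.01, adjusted p = 0.921). The angiopoietin receptor Tek rose by 0.44 ± 0.093 and the efflux pump Abcg2 by 0.46 ± 0.13, while the growth factor receptor Kdr fell by 0.30. Fits with 1 array left out had 2 called lower (Soc P40 arrays 3 or 4 or Soc P30 array 6 left out).

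The gene of largest difference was Ttr, a transport protein for thyroid hormone that is made in quantity by choroid plexus. It had 5.86, 5.98 and 6.33 in Soc P40, against 9.55, 9.69 and 9.79 in Soc P30, 12.6-fold lower in Soc P40 (-3.65 ± 0.10, adjusted p = 3.83e-31). In isolation-reared rats the step went the other way, 8.01 ± 0.11 in Iso P40 against 6.58 ± 0.28 in Iso P30, and the steps differed by -5.08 (adjusted p = 3.15e-30). Soc P30 stood alone among the social groups, since Ttr was 5.92 ± 0.20 in Soc P60 and 5.73 ± 0.13 in Soc P80. Of 11 other measured genes of choroid plexus and ependyma, 1 was lower and 1 higher without the filter, against 8.14% and 10.1% of all genes. Folr1 averaged 5.50 ± 0.33 in Soc P40 and 5.13 ± 0.32 in Soc P30, Kcne2 4.71 ± 0.76 in Soc P40 and 4.52 ± 0.40 in Soc P30 and Sostdc1 4.50 ± 0.72 in Soc P40 and 5.06 ± 0.24 in Soc P30, all under the signal filter and not called without it. Foxj1, a factor of ciliated cells, was the member called without the filter, higher by 0.73 (adjusted p = 0.0111). Of the 4 kept list members Enpp2, which oligodendrocytes also express, fell by 0.21 with Ttr, and Igf2 and Slc13a4 stood at 0.12 and -0.12. The part of choroid plexus in the samples was not tested.

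Most other large falls came from dim probe sets of genes that a brighter probe set read differently. Of the 15 largest falls, 12 were read through a probe set that was not the gene's brightest. The amyloid precursor App fell by 1.36 in its dimmest probe set (6.23, 6.35 and 6.54 in Soc P40, against 7.65, 7.72 and 7.90 in Soc P30), by 0.48 in the next and by 0.20 in the brightest. The astrocytic water channel Aqp4 fell by 1.32 in its dimmest and by 0.14 in its brightest probe set. For the kinesin Kif5c the probe sets were called in opposite directions, at -1.24 in the dim one and at 0.36 in the bright one. In the 12 genes the brightest probe set lay between -0.32 and 0.36 (median -0.12), and 6 of the 12 were called lower there. The others, with the difference in the probe set named by the rule and then in the brightest, were Pls3 (-1.18 and -0.04), Apc (-1.14 and -0.23), Sbf1 (-1.11 and -0.09), Pank3 (-1.08 and -0.09), Klc1 (-1.07 and -0.10), Napg (-1.04 and -0.32), Syt4 (-1.03 and -0.01), the myelin protein Mobp (-1.02 and -0.18) and the ubiquitin ligase Nedd4 (-1.01 and -0.22).

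The same held over all 1403 genes with several kept probe sets. The dimmest probe set was called lower by over 0.5 in 104 of them and the brightest in 5, while calls higher by over 0.5 numbered 22 and 14. In 60 genes probe sets were called in opposite directions. In the Iso step, where the Gapdh 3' to 5' ratio differed more (1.87 in Iso P40 and 1.33 in Iso P30), the dimmest probe set was lower by over 0.5 in 257 genes and the brightest in 11, and 3.36% of all probe sets were called lower by over 0.5. The position of the probe sets on the transcripts was not used here, and the part of the 3' to 5' ratio in these falls was not tested. The gene lists are therefore read through the brightest probe set of each gene, a choice made after the data had been seen.

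**Figure D3:**
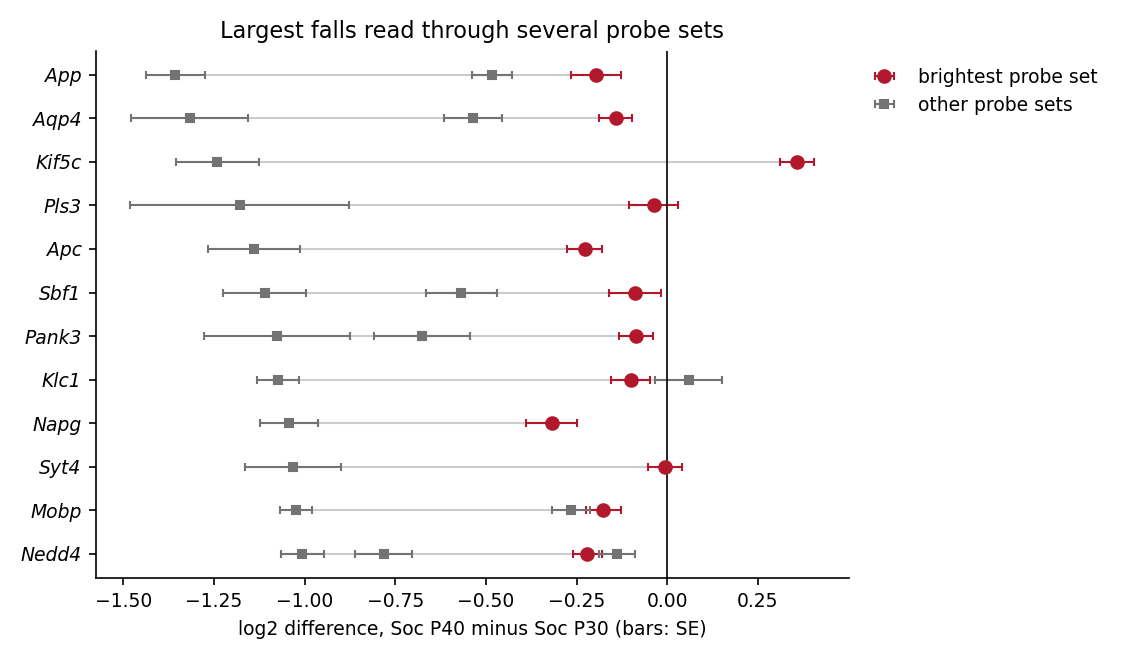
Log2 difference, Soc P40 minus Soc P30 (x axis, bars are SE), for each kept probe set of the 12 genes among the 15 largest falls that have several. Red circles are the brightest probe set of a gene and grey squares the others; the red circles lie between -0.32 and 0.36, and each gene has a square beyond -1.

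Falls that the brightest or only kept probe set showed included, after Ttr and RT1-T24-4, genes of the synapse. Of the falls named in this paragraph, only Rasgrp1 was read by more than 1 kept probe set. The others had no second kept probe set to compare. Syt1, the calcium sensor of vesicle fusion, had 7.36, 7.57 and 7.69 in Soc P40, against 8.42, 8.52 and 8.61 in Soc P30, a fall of 0.97 (adjusted p = 1.46e-17). The Ras activator Rasgrp1 fell by 0.87 and Sh3gl2, an endophilin that shapes vesicle membranes, by 0.66 (adjusted p = 6.26e-08). Dnm1l, the dynamin that divides mitochondria, fell by 0.73 and the ubiquitin ligase Trim9 by 0.66, as did the microtubule kinase Mark1 by 0.71. Syt1, Rasgrp1, Sh3gl2 and Dnm1l were lower in Iso P40 than in Iso P30 too, with differences of -1.34, -0.79, -0.86 and -0.62. Each was highest in Soc P30, Iso P30 and Iso P60, as was the dimmest probe set of App. Syt1 was at 8.52, 8.21 and 8.32 there, and at 6.87 to 7.55 in the other groups. The Gapdh 3' to 5' ratio averaged 1.52 in Soc P30 and 1.33 in Iso P30, against 1.61 in Soc P40 and 1.87 in Iso P40. It was 1.30 to 1.40 in the Iso P60 arrays, and its part in these falls was not tested. Falls of 0.67 to 1.07 were also called for Sprn, Nit2, Bbs7, the helicase Ddx17 and the pseudogenes Actr2-ps1 and Ddx3x-ps1, whose probe sets may read the parent genes, and Tbc1d23 fell by 0.66. Bbs7 and Tbc1d23 were the 2 whose arrays overlapped between the ages.

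Rises outside the immune lists were led by Anp32a, an acidic nuclear phosphoprotein, with 7.15, 7.36 and 7.54 in Soc P40, against 5.57, 5.95 and 6.51 in Soc P30 (1.37 ± 0.097, adjusted p = 1.01e-15). Its level in Iso was 7.31 in Iso P40 and 7.74 in Iso P30, close to Soc P40, and it was 6.38 in Soc P60 and 6.38 in Iso P60. Hyou1, a chaperone of the endoplasmic reticulum, rose by 1.35 ± 0.27, with a wide spread in Soc P30 (6.50, 6.67 and 6.89 in Soc P40, against 4.31, 5.68 and 5.91 in Soc P30). Limk1, the kinase that inactivates cofilin and so steadies actin, rose by 1.24 ± 0.18, with 5.71, 6.12 and 6.32 in Soc P40, against 3.83, 4.90 and 5.55 in Soc P30. Fbxw7, a substrate receptor of a ubiquitin ligase, rose in both of its probe sets, by 1.05 and 0.75, and its differences in Iso were 0.85 and 1.03. Dlg4, the main scaffold of the excitatory postsynapse, had 8.79, 8.92 and 9.06 in Soc P40, against 7.81, 7.92 and 7.95 in Soc P30, a rise of 1.01 ± 0.065 (adjusted p = 2.38e-17), and its other probe set stood at -0.02. The level of Dlg4 in Iso P30 was already 8.68 ± 0.044, and it was 7.98 ± 0.18 in Soc P60. Camk2a, the abundant kinase of that postsynapse, rose by 0.56 ± 0.037, with 10.08, 10.21 and 10.26 in Soc P40, against 9.56, 9.63 and 9.71 in Soc P30, and its step exceeded that in Iso by 0.69 (adjusted p = 2.12e-13). Vdac1, a channel protein of mitochondria, rose by 0.40 in its bright and 0.89 in its dim probe set, against -0.15 and -1.53 in Iso.

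The sign of small differences varied with the brightness of a gene. The genes were split by mean signal into 10 parts of equal size for this description, which was added after the data had been seen. The median difference was 0.071 in the dimmest part, 0.028 in the part numbered 6 and -0.083 in the brightest, where 38 of 790 genes were higher and 295 lower. After quantile normalization, which gives every array the same distribution of signals, the medians were 0.028, 0.021 and -0.004, and 132 genes of the brightest part were higher and 137 lower. Of the 911 genes called lower 679 were still lower, and of the 1020 called higher 896 were still higher. The difference in median and trimmed mean signal between the ages, given above, moves with this pattern, and its part was not tested. Counts after quantile normalization therefore stand beside the lists that follow where they differ, since many of their members are bright.

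**Figure D4:**
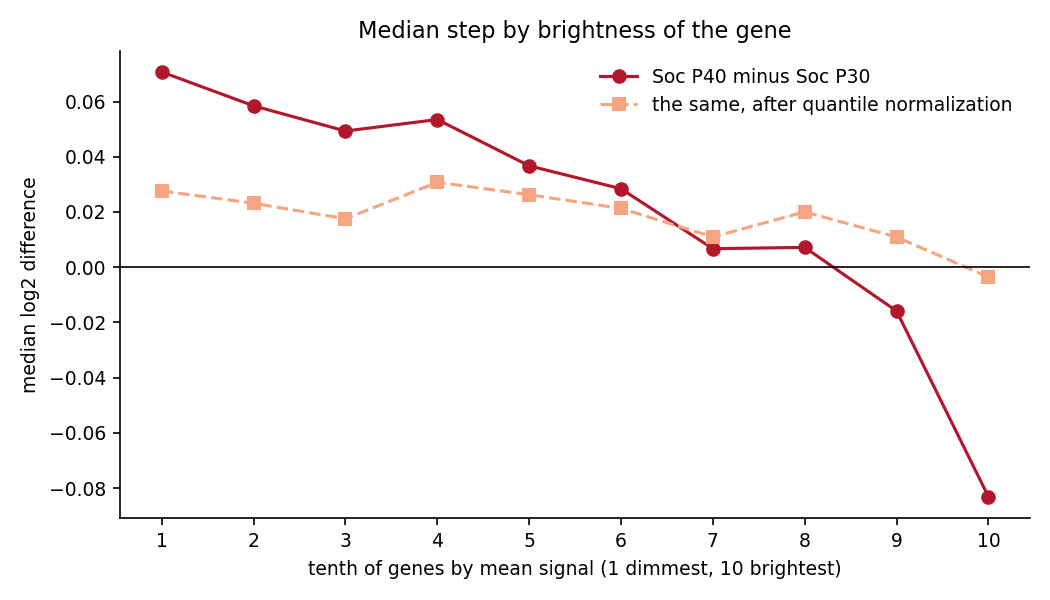
Median log2 difference, Soc P40 minus Soc P30 (y axis), of genes in 10 equal parts by mean signal (x axis, 1 dimmest to 10 brightest), for the values as deposited (red) and after quantile normalization (orange). The red line runs between 0.071 and -0.083, and the orange one between 0.031 and -0.004.

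Many presynaptic genes were lower. Of 28 kept members of the presynaptic and vesicle list, 15 fell (53.6%, against 11.5% of all genes), 2 rose (7.14%, against 12.9%) and 11 were not called (median -0.13, against 0.015 for all genes), and 13 to 16 were lower with 1 array left out. After quantile normalization 11 were lower and 4 higher, against 9.6% and 13.4% of all genes, with a median of -0.03. Besides Syt1 and Sh3gl2, Amph, which recruits dynamin in endocytosis, had 7.94, 8.07 and 8.21 in Soc P40, against 8.35, 8.36 and 8.44 in Soc P30 (-0.30 ± 0.048, adjusted p = 3.89e-06). The synapsin Syn2, which tethers vesicles, fell by 0.28 (-0.25 after quantile normalization), the vesicle proteins Syngr3 and Syp by 0.17 and 0.22 (-0.14 and -0.13), the phosphatase Synj1 by 0.18 (-0.15) and the active zone scaffold Bsn by 0.27 (-0.19). Snap25, the brightest of these at 11.74 ± 0.13 in Soc P40 and 11.98 ± 0.053 in Soc P30, was called at -0.24, stood at 0.000 after quantile normalization and was not called without Soc P40 array 3 (-0.19, adjusted p = 0.070). The adhesion gene Nrxn2 rose by 0.34 ± 0.068. The count changed with single arrays, with 1 called higher (Soc P30 array 4 left out).

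Of the genes of immature neurons and neurite growth 10 of 20 were lower (50%, against 11.5% of all genes) and 3 higher (15%, against 12.9%; median -0.13), with 6 lower and 4 higher after quantile normalization (against 9.6% and 13.4% of all genes; median -0.07). Crmp1, which relays semaphorin signals in growing axons, fell by 0.30 (adjusted p = 3.74e-07), with 8.45, 8.56 and 8.66 in Soc P40, against 8.82, 8.85 and 8.91 in Soc P30, and its step was opposite to that in Iso (0.16, difference -0.46, adjusted p = 5.31e-07). Stmn4 and Stmn2, which destabilise microtubules in growth cones, fell by 0.30 and 0.17 (-0.26 and -0.07 after quantile normalization), and Gap43, the growth cone protein, by 0.20 (-0.10). The surface protein Cd24 fell by 0.27 and Dpysl5 by 0.21. Tubb3, the neuronal beta-tubulin, went the other way with 9.70, 9.76 and 9.87 in Soc P40, against 9.35, 9.37 and 9.46 in Soc P30, a rise of 0.38 ± 0.045 (adjusted p = 6.47e-09). The fatty acid binding protein Fabp7 of glial precursors rose by 0.23 ± 0.051 and Islr2 by 0.44 ± 0.11. Without single arrays there were 5 called higher (Soc P30 array 6 left out).

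In the list of microtubules, neurofilaments and actin 9 of 28 were lower and 5 higher. After quantile normalization 1 was lower and 6 were higher, and the median turned to 0.01 against -0.10. Counts here and for glycolysis read against 11.5% lower and 12.9% higher among all genes (9.6% and 13.4% after quantile normalization). Fits with 1 array left out had 3 called higher (Soc P40 array 4 or Soc P30 array 2 left out), and 4 called lower (Soc P40 array 3 left out). Kif5c, the actin regulator Pfn1 (0.34 ± 0.047) and Limk1 led the rises. The neurofilament partner Ina fell by 0.13 (adjusted p = 0.000675), -0.10 after quantile normalization. Of the genes of glycolysis and lactate 6 of 20 were lower and 1 higher, and 1 lower and 2 higher after quantile normalization, where the median turned to 0.03 against -0.08. Slc2a1 was the one that rose, and Eno1 fell by 0.17 (-0.07 after quantile normalization). Aldoa was called at -0.23, and stood at 0.02 after quantile normalization and at -0.19 (adjusted p = 0.068) without Soc P40 array 3.

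**Figure D5:**
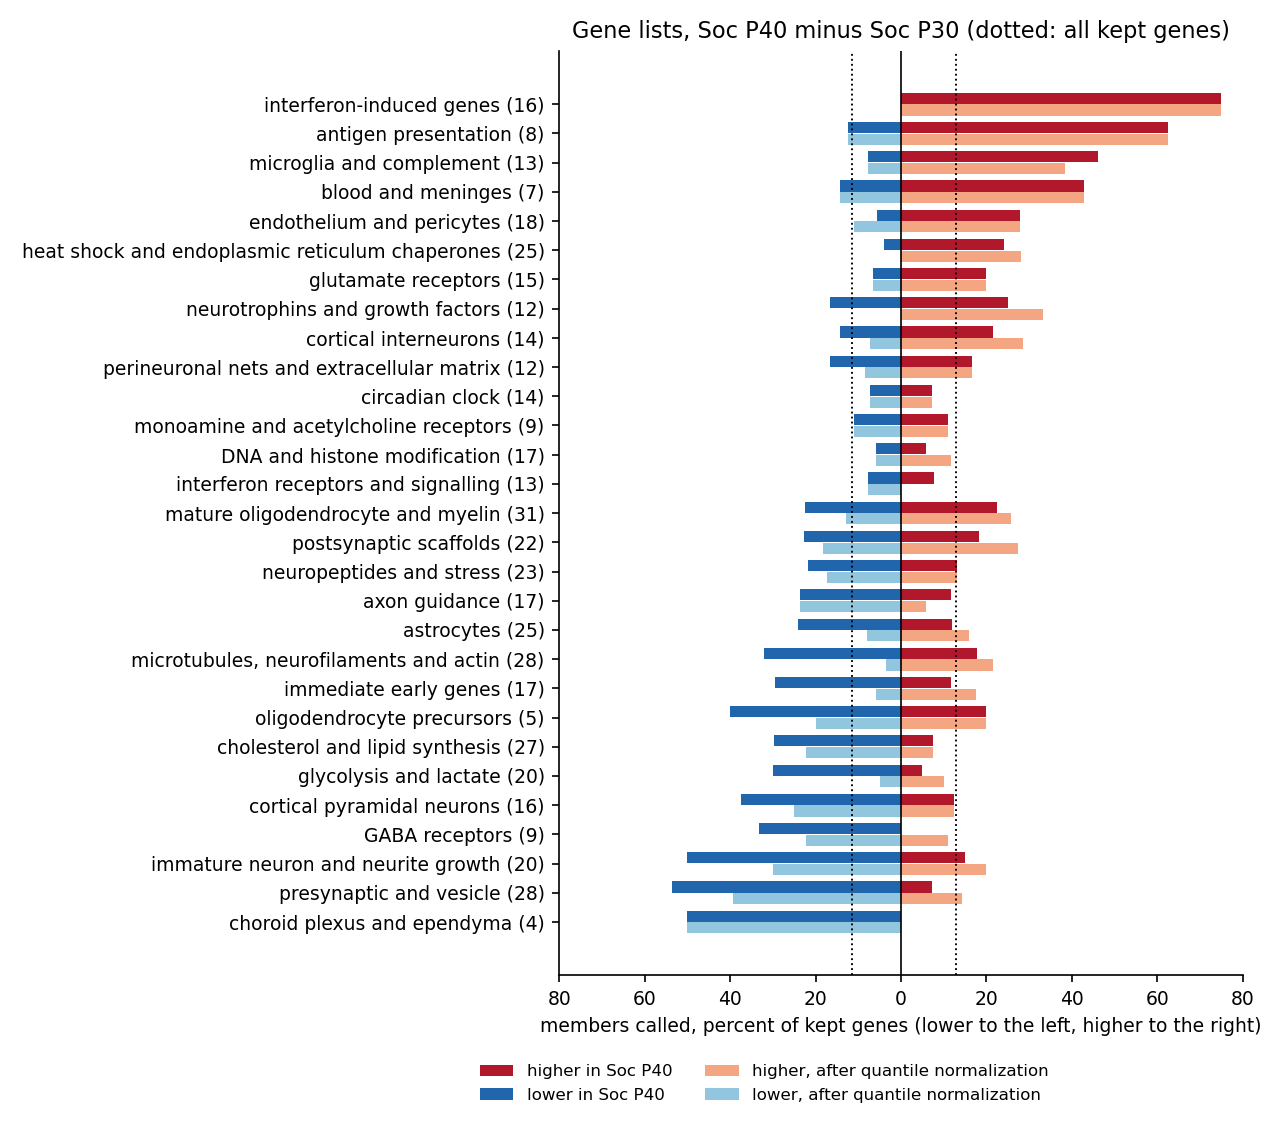
Members called in each of the 29 gene lists, as a percent of kept genes (number in brackets), higher in Soc P40 to the right and lower to the left, as deposited (dark bars) and after quantile normalization (light bars). Dotted lines mark all kept genes, 12.9% higher and 11.5% lower; of interferon-induced genes 12 of 16 are higher, and of presynaptic genes 15 of 28 are lower.

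Differences in genes of neuronal types and receptors were mostly small, and counts of such lists read against 12.9% higher and 11.5% lower among all genes (13.4% and 9.6% after quantile normalization). Of 16 kept genes of cortical pyramidal neurons 6 were lower and 2 higher (4 and 2 after quantile normalization). The count changed with single arrays, with 1 called higher (Soc P40 arrays 1 or 3 or Soc P30 array 4 left out), and 2 called lower (Soc P40 array 3 left out), and 3 called lower (Soc P40 array 6 or Soc P30 array 1 left out). Fezf2, which specifies deep-layer projection neurons, had 6.62, 6.70 and 6.96 in Soc P40, against 7.10, 7.35 and 7.48 in Soc P30, a fall of 0.61 (adjusted p = 1.5e-08) that exceeded the one in Iso (-0.21, difference -0.40, adjusted p = 0.00949). The calmodulin-binding postsynaptic protein Nrgn fell by 0.30 (-0.15 after quantile normalization). Of 14 interneuron genes 3 were higher and 2 lower. Slc32a1, which loads GABA into vesicles, rose by 0.33 ± 0.062 and the potassium channel Kcnc2 of fast-spiking cells by 0.18 ± 0.055, while the calcium buffer Calb1 and Gad1 fell by 0.13 and 0.10 (-0.09 and -0.02 after quantile normalization). Slc32a1 rose in Iso too (0.27).

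Of 9 GABA receptor genes 3 were lower and 0 higher (2 and 1 after quantile normalization): Gabrb2 (-0.21), Gabrg1 (-0.41) and Gabbr2 (-0.12, not called without Soc P40 arrays 1, 2 or 3 or Soc P30 arrays 2, 3, 4, 5 or 6). The count of 0 higher in limma was 0 at an unadjusted p under 0.05 too. In a list of 9 genes it lies near the share of all genes, 12.9%, and is not read as a trait of the list. Without the filter on signal 0 of 11 GABA receptor genes were higher and 4 lower, with Gabra4 at -0.73. Of 15 glutamate receptor genes 3 were higher and 1 lower, and 3 lower without Soc P30 array 2. Without the filter 5 of 23 were higher and 3 lower, among them Grm2 (0.60), Grm5 (-0.77) and Grm7 (-0.66). Counts without the filter read against 10.1% higher and 8.14% lower among all genes. The NMDA receptor subunit Grin2a rose by 0.54 ± 0.15 and in Iso by 0.72, and the metabotropic receptor Grm3 by 0.36 ± 0.078. Cacng3, an auxiliary subunit of AMPA receptors, fell by 0.34. Among 22 postsynaptic scaffolds 5 were lower and 4 higher (4 and 6 after quantile normalization). Next to Dlg4 and Camk2a, Shank1 rose by 0.20 ± 0.042, and Dlg3, a sister gene of Dlg4, fell by 0.29 (adjusted p = 0.0002). The steps of 10 of the 22 differed between Soc and Iso (14.9% of all genes), 3 of them with Soc above (5.95% of all genes).

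Myelin genes went both ways. Of 31 kept genes of mature oligodendrocytes 7 were higher and 7 lower (8 and 4 after quantile normalization), with a median of 0.05. Among all genes 12.9% were higher and 11.5% lower (13.4% and 9.6% after quantile normalization). Tspan2, a tetraspanin of early myelination, had 9.05, 9.12 and 9.25 in Soc P40, against 9.60, 9.63 and 9.77 in Soc P30, a fall of 0.50 (adjusted p = 3.16e-12). Ugt8, which makes the galactolipids of myelin, fell by 0.41 and Nfasc, which anchors the nodes, by 0.33. Ermn, a cytoskeletal protein of late oligodendrocytes, rose by 0.37 ± 0.057, the chaperone Cryab by 0.29 ± 0.078, and Gsn and Car2 by 0.18 and 0.15. The compact myelin protein Mbp, at 11.63 ± 0.11 in Soc P40 and 11.86 ± 0.068 in Soc P30, was called at -0.23 but stood at -0.02 after quantile normalization, and was not called without Soc P40 array 3 (adjusted p = 0.059). In Iso 18 of the 31 were lower, against 5.61% of all genes. The steps of 16 differed, all with Soc above, against 5.95% of all genes. The Gapdh 3' to 5' ratio also differed more in the Iso step (1.33 in Iso P30, 1.87 in Iso P40) than in the Soc step (1.52 in Soc P30, 1.61 in Soc P40). Its part in this difference was not tested. Of 5 oligodendrocyte precursor genes 1 was higher, Ptprz1 (0.21 ± 0.056), and 2 were lower, Pdgfra and Fyn. Without single arrays there were 0 called lower (Soc P40 array 2 or Soc P30 arrays 1, 4 or 6 left out), and 1 called lower (Soc P40 arrays 1, 4 or 6 left out).

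Of 25 astrocyte genes 6 were lower and 3 higher, against 11.5% and 12.9% of all genes. After quantile normalization 2 were lower and 4 higher, against 9.6% and 13.4%, with the median at 0.04 against -0.06. The glutamate transporter Slc1a3 fell by 0.26 (-0.07 after quantile normalization), Acsbg1 by 0.18 (-0.17) and Clu by 0.14 (-0.04). The intermediate filament Vim rose by 0.27 ± 0.064 and Fabp7 rose as given above. Gfap, the filament of reactive astrocytes, averaged 10.23 ± 0.038 in Soc P40 and 10.22 ± 0.032 in Soc P30 and was not called.

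Genes that neurons switch on with activity differed by -0.47 to 0.25 in socially reared rats (median 0.04). Of 17 immediate early genes 2 were higher (11.8%, against 12.9% of all genes) and 5 lower (29.4%, against 11.5%). After quantile normalization 3 were higher and 1 lower, against 13.4% and 9.6% of all genes. Arc, which acts at active synapses, had 9.25, 9.30 and 9.41 in Soc P40, against 8.94, 9.05 and 9.17 in Soc P30, a rise of 0.25 ± 0.038 (adjusted p = 1.53e-06). Klf10, a transcription factor, had 7.73, 8.09 and 8.19 in Soc P40, against 8.44, 8.53 and 8.60 in Soc P30, a fall of 0.47 (adjusted p = 2.28e-07). Ier5 fell by 0.11, and Nr4a1 was called at 0.13 (adjusted p = 0.054 without Soc P30 array 2). Fits with 1 array left out had 1 called higher (Soc P30 array 2 left out), and 4 called higher (Soc P40 array 2 left out), and 2 called lower (Soc P40 arrays 2, 3 or 4 or Soc P30 array 1 left out), and 3 called lower (Soc P40 array 6 or Soc P30 arrays 2, 3 or 6 left out). In Iso 9 of the 17 were higher, against 12.4% of all genes. The steps of 8 differed, all with Soc below, against 8.93% of all genes. The step of Arc in Soc was smaller than in Iso by 0.43 (0.68 in Iso, adjusted p = 2.15e-07).

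Of 23 neuropeptide and stress genes 3 were higher (13.0%, against 12.9% of all genes) and 5 lower (21.7%, against 11.5%). The count changed with single arrays, with 3 called lower (Soc P40 array 5 left out). The glucocorticoid-induced Tsc22d3 rose by 0.25 ± 0.052 and the peptide precursor Cartpt by 0.30 ± 0.086. The somatostatin receptor Sstr1 fell by 0.23, and Crhbp, which binds corticotropin-releasing hormone, by 0.27. Of 27 genes of cholesterol and lipid synthesis 8 were lower (29.6%, against 11.5% of all genes) and 2 higher (7.41%, against 12.9%). After quantile normalization 6 were lower and 2 higher, against 9.6% and 13.4% of all genes. The squalene epoxidase Sqle had 7.94, 8.05 and 8.16 in Soc P40, against 8.27, 8.32 and 8.47 in Soc P30, a fall of 0.30, and Cyp51, Fdft1, Msmo1 and the desaturase Fads1 fell by 0.20, 0.19, 0.24 and 0.18. Srebf1, a regulator of lipid genes, rose by 0.28 ± 0.083. Without single arrays there were 1 called higher (Soc P40 arrays 3 or 6 or Soc P30 arrays 1, 3 or 4 left out). Of 25 heat shock and endoplasmic reticulum chaperones 6 were higher and 1 lower, against 12.9% and 11.5% of all genes. The rises were led by Hyou1, Sdf2l1 (0.31 ± 0.068) and Manf (0.49 ± 0.12). Fits with 1 array left out had 0 called lower (Soc P40 array 3 or Soc P30 array 2 left out), and 2 called lower (Soc P40 array 5 left out). Several genes stand in more than 1 list, among them Camk2a, Nrgn, Homer1, Fabp7, Ptprz1, Enpp2 and Slc2a1, and count in each.

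The step in social rearing was compared as a whole with the step in isolation, which used other arrays. In Iso 2656 probe sets were called (21.9%), 1410 higher (11.6%) and 1246 lower (10.3%), and 2028 (16.7%) differed between the steps, 945 with Soc above (7.78%) and 1083 with Soc below (8.91%). Per gene 1425 were called in Iso, 18% of those tested, and 1175 (14.9%) differed between the steps. Of the probe sets called in either rearing, 876 were called in the same direction in both, which is 26.8% of those called in Soc and 33.0% of those called in Iso, and 219 were called in opposite directions. Of the 3265 called in Soc, 1162 differed between the steps. Besides the genes above, the smallest p-values of that difference fell on dim probe sets of Mobp, Mbp, the desaturase Scd2 and the glutamine synthetase Glul, which were less low in Soc (-1.02, -0.85, -0.81 and -0.32) than in Iso (-2.18, -2.07, -1.61 and -1.28). In their brightest probe sets the 2 steps were nearer, -0.18, -0.23, -0.15 and -0.11 in Soc and -0.39, -0.30, -0.19 and -0.13 in Iso.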

How the data were processed

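Biotin-labelled RNA was read on Affymetrix arrays, per the labels' protocols. The authors computed the signals with MAS5, per the submitters' processing notes, with no version or scaling target given in the sources used here, and deposited them on the log2 scale: 99.9997% of the powers of 2 are multiples of 0.01 (tolerance 0.01 of that unit, 3 exceptions). The arrays had been scaled (2% trimmed means 156.6 to 161.4), so no normalization was added. The authors' deposited table of filters starts from 31099 probe sets, and those with presence calls and mean signals above their limits are the 20304 of the table. The number of arrays limits the precision.

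Kept probe sets (12149 of 20249 that are not controls) had a mean log2 of at least the 40th percentile, 5.72. Of all, 14607 had 1 gene symbol, 326 several and 5316 none in the platform annotation. Gene numbers of 14567 matched the GRCr8 gene table and 0 symbols changed. limma 3.58.1 in R 4.3.3 fitted 8 group means over 46 samples with trended eBayes (38 residual degrees of freedom). Iso P30 arrays 3 and 4 (distance 0.116, the other pairs of arrays within groups 0.175 or more) were averaged. Quality was tested by exact two-sided permutation. The genes named are the 15 largest rises and 15 largest falls by 1 probe set per gene (smallest p), repeated for brightest probe sets, the 10 smallest p for the difference of steps, and up to 6 members of each of 29 lists (807 entries). The comparison, lists and members were chosen with earlier results of these data known. Alternatives were other filters, normalization, tests, covariates and left-out arrays. Figures used matplotlib 3.10.9 in Python 3.11.15.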

Additional observations from a re-analysis of the deposited data

Results flagged for a closer look

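In 26 of 336 groups of 6 arrays (the groups of the named genes and of the quality measures at either age), 1 array lay far from the other 5 by Dixon's criterion at 95%, which chance alone meets in about 1 group in 20. The array lay above the others for Ifi27 in Soc P30 array 1 (9.86), Glul (dim probe set) in Soc P30 array 4 (9.29), Calr in Soc P40 array 2 (9.76), Arc in Soc P40 array 5 (9.41), Tspan2 in Soc P30 array 1 (9.77), Ugt8 in Soc P40 array 2 (8.26), Clu in Soc P30 array 4 (11.18), Eno1 in Soc P30 array 4 (10.97) and Ldha in Soc P30 array 4 (10.79). It lay below them for Pls3 (dim probe set) in Soc P40 array 4 (3.82), Klc1 (dim probe set) in Soc P40 array 2 (7.37), Napg (dim probe set) in Soc P30 array 6 (6.79), Ddx3x-ps1 in Soc P40 array 5 (5.28), Trim9 in Soc P40 array 3 (7.54), Mavs in Soc P40 array 5 (5.85), Klf10 in Soc P40 array 2 (7.73), Slc1a3 in Soc P40 array 3 (11.17), C1qb in Soc P30 array 1 (6.04), Slco1a4 in Soc P40 array 1 (8.74), Tek in Soc P40 array 3 (6.77), Calb1 in Soc P40 array 3 (9.15), Gabbr2 in Soc P30 array 1 (10.41), Cd24 in Soc P40 array 2 (7.74), Chgb in Soc P30 array 5 (9.59) and Msmo1 in Soc P40 array 2 (9.90). For the Gapdh 3' to 5' ratio the low array was Soc P30 array 4 (1.45).

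The step differed between rearings in 28 of 35 named genes, by the test of the difference itself in limma. Among all features 16.7% of probe sets and 14.9% of genes differed. The 35 were named for their large steps in Soc or, for 10 of them, for the smallest p in this same test. The count thus follows from how the genes were chosen and is not read as a result. The step in Soc exceeded that in Iso, by the log2 difference in brackets, for Irf7 (1.82), Isg15 (2.13), Lgals3bp (1.22), RT1-S3 (1.24), Irf9 (1.22), Ifit2 (1.28), Anp32a (1.80), Hyou1 (1.85), Col1a1 (1.10), Ifitm3 (1.15), Limk1 (0.83), Ifi27 (1.09), Rsad2 (0.96), Irgm2 (1.02), App (0.85), Sbf1 (0.48), Actr2-ps1 (0.72), Klc1 (0.80), Syt4 (0.58), Mobp (1.15), Vdac1 (2.43), Mbp (1.23), Scd2 (0.80), Glul (0.96) and Camk2a (0.69). It lay below that in Iso for Ttr (-5.08), RT1-T24-4 (-1.62) and Napg (-0.39). For App, Sbf1, Klc1, Napg, Syt4, Mobp, Mbp, Scd2, Glul and Vdac1 these values come from a dim probe set of the gene.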

How the results depend on the processing

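Of 169 named results, each recomputed under the alternatives that applied to it, 3733 of 3930 values kept their direction and side of the threshold, 195 kept their direction and lost the threshold and 2 reversed, and 45 results lost it at least once. The reversals came with quantile normalization, Sparcl1 (0.046) and Aldoa (0.024). The counts over 0.5 moved with the filter, to 489 higher and 450 lower with none and to 63 and 87 with the 60th percentile. A Welch test per probe set called 911 higher. The brightest probe set per gene, an alternative chosen after seeing the data, gave 1931 called, 911 of them lower, 97 higher and 28 lower by over 0.5, and 1175 for the difference between the steps. With 1 array left out, 2852 to 3175 probe sets were called, 1325 to 1444 higher and 1527 to 1731 lower, 178 to 216 higher and 187 to 200 lower by over 0.5, and 1789 to 2062 for the difference between the steps. With the replicate number as a block 2724 were called and 1543 differed between the steps. The numbers did not pair the samples (correlations of deviations -0.0795 to 0.0503, and 0 of 6 arrays closest to its own number), and 15 named results lost the threshold under the block. Differences of genes near the 10th percentile of signals have no known size. The cause of these shifts was not tested, except that fewer probe sets enter with a stricter filter or 1 probe set per gene.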

Other observations

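Counts of the lists not described so far read against 12.9% higher and 11.5% lower among all genes. Of 12 genes of perineuronal nets and extracellular matrix 2 were higher and 2 lower, among them Hapln4, a link protein of nets around fast-spiking cells, with 7.83, 7.91 and 7.96 in Soc P40, against 7.55, 7.67 and 7.81 in Soc P30, a rise of 0.21 ± 0.042 (adjusted p = 0.000105). Of 17 axon guidance genes 2 were higher and 4 lower, and the receptor Epha4 and the repellent Slit2 fell by 0.20 and 0.30 while the ligand Efnb3 rose by 0.25 ± 0.043. For the nets, fits with 1 array left out had 1 called lower (Soc P40 arrays 3, 5 or 6 left out). For axon guidance they had 1 called higher (Soc P40 arrays 2, 4 or 6 or Soc P30 arrays 1, 2, 5 or 6 left out). Of 9 genes of monoamine and acetylcholine signalling 1 was higher and 1 lower. Ppp1r1b, the dopamine-regulated phosphatase inhibitor, had 7.80, 7.98 and 8.17 in Soc P40, against 7.36, 7.46 and 7.67 in Soc P30, a rise of 0.48 ± 0.10, and the oxidase Maoa fell by 0.20. Fits without single arrays had 2 called higher (Soc P40 array 5 or Soc P30 array 6 left out). Of 12 neurotrophins and growth factors 3 were higher and 2 lower (4 higher after quantile normalization), with Fgf13 at -0.16 (-0.06) and Igf1r at 0.24. Such fits had 1 called higher (Soc P30 array 3 left out), and 5 called higher (Soc P40 array 2 left out), and 1 called lower (Soc P40 arrays 1, 3 or 4 or Soc P30 arrays 1, 2, 3 or 4 left out). Of 14 clock genes 1 was higher and 1 lower, and of 17 genes of DNA and histone modification 1, the deacetylase Hdac3 (0.23 ± 0.068), was higher and 1 lower. For the clock list they had 0 called higher (Soc P40 arrays 1, 2 or 3 or Soc P30 arrays 1, 2, 4 or 5 left out), and 2 called higher (Soc P40 arrays 4 or 5 left out), and 0 called lower (Soc P40 array 5 or Soc P30 array 1 left out), and 2 called lower (Soc P30 array 5 left out). For the modification list they had 2 called higher (Soc P30 arrays 3, 4 or 5 left out), and 0 called lower (Soc P30 array 5 left out).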
